A study of Bos taurus with 2 samples.

Results

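The tender-only peaks of longissimus dorsi muscle (LD) were the H3K4me3 peaks of tender Angus steers on chromosomes 1 to 29 that no peak of tough steers met by even 1 bp. Members were thus chosen by the positions of the peaks called in both libraries, which follow from the reads in them. There were 2741 of them among 12607 tender peaks on these chromosomes, and among 24465 peaks listed in all for both groups. This is 21.7% of the tender peaks tested for overlap, a share that the rule itself set and from which nothing is read. The other 9866 tender peaks met a tough peak and are called shared here. The tender-only peaks covered 5.44 Mb of the 27.8 Mb under tender peaks, or 19.6%. With the groups exchanged, 1574 of 11277 tough peaks (14.0%) met no tender peak.

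H3K4me3, trimethylation of lysine 4 of histone H3, is laid down around the start sites of active and poised genes, where it forms narrow peaks over the nucleosomes next to the start. Weaker and more diffuse H3K4me3 is also known at some enhancers and at start sites used in few cells. Muscle tissue holds nuclei of fibres of several types together with those of satellite, endothelial, fat and connective tissue cells, so a weak peak can belong to a small share of the nuclei.

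The LD was taken at harvest from purebred Angus steers of about 12 months, 19 in number. Steaks were ranked by the Warner-Bratzler shear force, a measure of how hard cooked meat is to cut. The 4 steers with the lowest force, 6.77 ± 0.56 kg, formed the tender group, and the 5 with the highest, 19.93 ± 0.39 kg, formed the tough group (the kind of error is not stated). Within a group, equal amounts of crosslinked chromatin were combined, cut with micrococcal nuclease and precipitated with an antibody against H3K4me3, and each pool gave 1 ChIP-Seq library. The data therefore hold no spread between steers, nothing that sets the groups apart could be checked in replicates, and no test was run. In such pools, a mark in fewer nuclei and a weaker mark per nucleus cannot be told apart, nor can a difference between 2 groups of steers and a difference between 2 libraries. A mark strong in 1 steer of a pool also looks the same as a weaker mark in all of them.

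SICER, the peak caller, counted reads in windows of 200 bp, joined windows over gaps of up to 400 bp, and gave each window a score that grows as its reads become less probable by chance (the negative natural log of a Poisson probability). The score of a peak is the sum over its windows. Positions are those of the deposited lists, counted from 1, and the lists name no genome build. On chromosome X the scored lists ran to 148.8 Mb and the lists of named peaks of the same libraries to 87.9 Mb, so their positions are not of the same build, and neither list was set against an annotation. Genes at the tender-only peaks were therefore not analysed here.

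The 5 tender-only peaks with the highest scores each had peaks of both groups within 500 kb. The number of other tender peaks there ran from 4 on chromosome 1 to 33 on chromosome 25, against a median of 9 for all tender-only peaks. The highest score, 121.8, belonged to chr25:2769801-2772400, a peak of 2600 bp with 39 reads in 8 occupied windows. It had 33 other tender peaks and 26 tough peaks within 500 kb, and the nearest tough peak was 19 kb away. Next came chr26:18441401-18444400, with a score of 118.5 and 42 reads, the most in any tender-only peak, at 8.8 kb from a tough peak. The peak at chr1:132002201-132003400 scored 113.8 with 33 reads in only 4 windows, or 8.25 reads per occupied window, and lay 10.2 kb from a tough peak of score 129.6. At chr2:107914601-107918400 the score was 106.6 with 39 reads spread over 13 windows, and a tough peak of score 138.8 began 4.6 kb further on. The fifth, chr16:55515801-55517200, scored 102.5 with 31 reads and lay 23 kb from a tough peak of score 28.4. All of them kept a score of at least 97.9 when scored with the mean reads per window of the tough library.

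A different set of peaks led by score per 200 bp window, and each of the 5 highest was a single window or a pair of windows long. The highest, 38.1 per window, was chr19:48047201-48047400, where 11 reads fell in 1 window. It lay 1.6 kb from another tender peak and 285.2 kb from the nearest tough peak. On chromosome 15, chr15:41408801-41409200 held 20 reads in 2 windows (34 per window, 4.8 kb from a tough peak) and chr15:34940401-34940800 held 15 reads in 2 windows (26.7 per window, 70.2 kb from a tough peak). Both chr1:59527401-59527600 and chr2:25637001-25637200 held 8 reads in 1 window, a score of 25.6, and fell to 24.4 with the tough mean, below the lowest score of 25.2 in the tough list. Of the 14 tender peaks that were 1 window long, 5 were tender-only.

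Most tender-only peaks rested on few reads. The number of reads could be computed from the score of each of the 2741 peaks (37326 reads in all), and it ran from 8 to 42 with a median of 12 and quartiles of 11 and 15. The shared tender peaks had a median of 25 reads and quartiles of 17 and 35, over the 8955 whose score gave the number. Of the tender-only peaks, 232 had 20 reads or more, 24 had 30 or more and 1 had 40 or more. Since weakly supported peaks are the ones a second library can miss, reads and score are tied to the rule, and these values are a description only.

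The share of tender peaks that were tender-only fell with the number of reads from 11 reads on. Below that it was 47.6% at 8 reads (10 of 21 peaks), 63.0% at 9 and 63.2% at 10. It was 66.8% at 11 reads (95% Wilson interval 63.6 to 69.9), 59.8% at 12, 40.9% at 14, 13.6% at 20 and 1.84% at 30. Intervals here and below cover counting error only, and neighbouring peaks are not independent. In bands, 982 of 1510 peaks with 8 to 11 reads were tender-only (65.0%), 978 of 1868 with 12 to 14 (52.4%), 549 of 2017 with 15 to 19 (27.2%), 208 of 2863 with 20 to 29 (7.27%) and 24 of 3403 with 30 to 60 (0.705%). The tough-only share of tough peaks was 39.2%, 45.2%, 22.0%, 5.65% and 0.384% in the same bands, so that it rose between the lowest bands, with 50.8% at 13 reads, and fell above. In the scored lists the tender value was the higher of both in each band, by the widest margin at 8 to 11 reads, where the tough list held only 227 peaks. In the named peak lists of the same libraries the order turned at 12 to 14 reads (49.3% tender-only, 49.9% tough-only), and at 15 to 19 reads the shares were 23.2% and 22.4%.

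**Figure D1:**
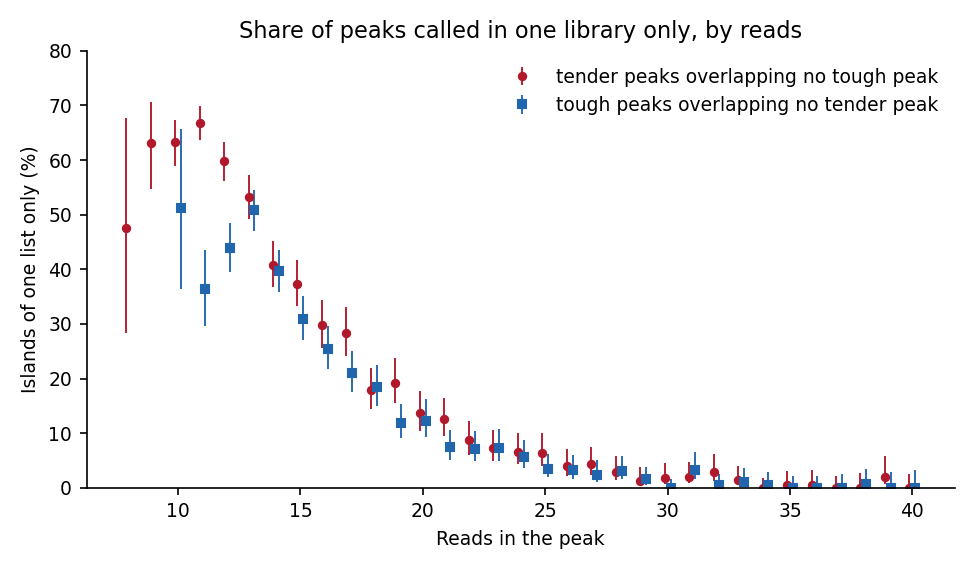
Share of peaks called in 1 library only (y axis, %) at each number of reads in the peak (x axis), for tender (circles) and tough (squares) peaks on chromosomes 1 to 29, with 95% Wilson intervals as bars and only numbers of reads that at least 20 peaks had. The tender-only share was 66.8% at 11 reads and 13.6% at 20, and both series lay near 0 above 30 reads.

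The lowest score allowed in the list differed between the libraries. The mean reads per window, which sets the score of a given number of reads, was 0.157 for tender and 0.182 for tough muscle (a ratio of 1.17), and the lowest scores were 23.2 and 25.2. With their own reads and windows but the tough mean, 915 of the 2741 tender-only peaks (33.4%, interval 31.6 to 35.2) scored below the lowest tough score. The same happened to 409 of the 8955 shared tender peaks whose reads could be computed (4.57%). The reads were not scaled to the higher mean, so each score could only fall, and these are not counts at matched depth. Without those 915 peaks, 1826 tender-only peaks were left. Whether these stretches carried reads in the tough library was not tested, since the files hold no reads outside the peaks.

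In their overall size the tender-only peaks were somewhat shorter than the shared ones. The median length was 1800 bp (quartiles 1200 and 2600) against 2000 bp (1400 and 2800), a difference lost at 2 times the lowest tender score (2200 bp in both) and with 50% coverage as the rule (2000 bp in both), and 16.6% against 21.9% were 3 kb or longer. The median score per window was 3.41 (2.37 and 5.27) against 7.65 (5.00 and 11.2). A tender-only peak had a median of 7 occupied windows, 2.0 reads per occupied window and 71.4% of its windows occupied, whereas a shared peak had 8, 3.2 and 81.8%. A longer peak has more bases in which it can meet a tough peak, so the rule also used length in part.

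Among peaks with like numbers of reads the order of the lengths turned, and the tender-only peaks were the longer and more dilute ones. At 12 to 14 reads the median length was 2000 bp for tender-only and 1400 bp for shared peaks. At 15 to 19 reads it was 2200 against 1600 bp, and at 20 to 29 reads 2400 against 2000 bp. The reads per occupied window were correspondingly lower, with 1.86 against 2.17, 2.12 against 2.57 and 2.5 against 3.14 in these bands. At 8 to 11 reads the lengths were 1400 and 1200 bp, with 2.0 and 2.2 reads per occupied window. At 11 to 15 reads the tender-only median was the longer on 28 of 29 chromosomes, and its reads per occupied window the lower on 27. The chromosomes come from the same 2 libraries and are not replicates. A given number of reads scores lower when spread over more windows, with median scores of 30.2 against 32.3 at 12 to 14 reads. Dilute peaks thus lie nearer the lowest score listed, so these orders are tied to the rule and are a description only.

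Seen from the side of length, long and thin tender peaks were tender-only most often. Of the peaks with 12 to 14 reads, 131 of 365 up to 1 kb long were tender-only (35.9%), 407 of 867 of 1.2 to 2 kb (46.9%), 318 of 489 of 2.2 to 3 kb (65.0%) and 122 of 147 longer than that (83.0%, interval 76.1 to 88.2). With 15 to 19 reads the shares were 15.6%, 22.1%, 33.1% and 56.8% in the same order, and with 20 to 29 reads 4.33%, 4.63%, 8.38% and 17.4%. The tough list showed the same order, with medians of 2400 bp for tough-only and 1600 bp for shared tough peaks at 12 to 14 reads, and 3200 against 2000 bp at 15 to 19.

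**Figure D2:**
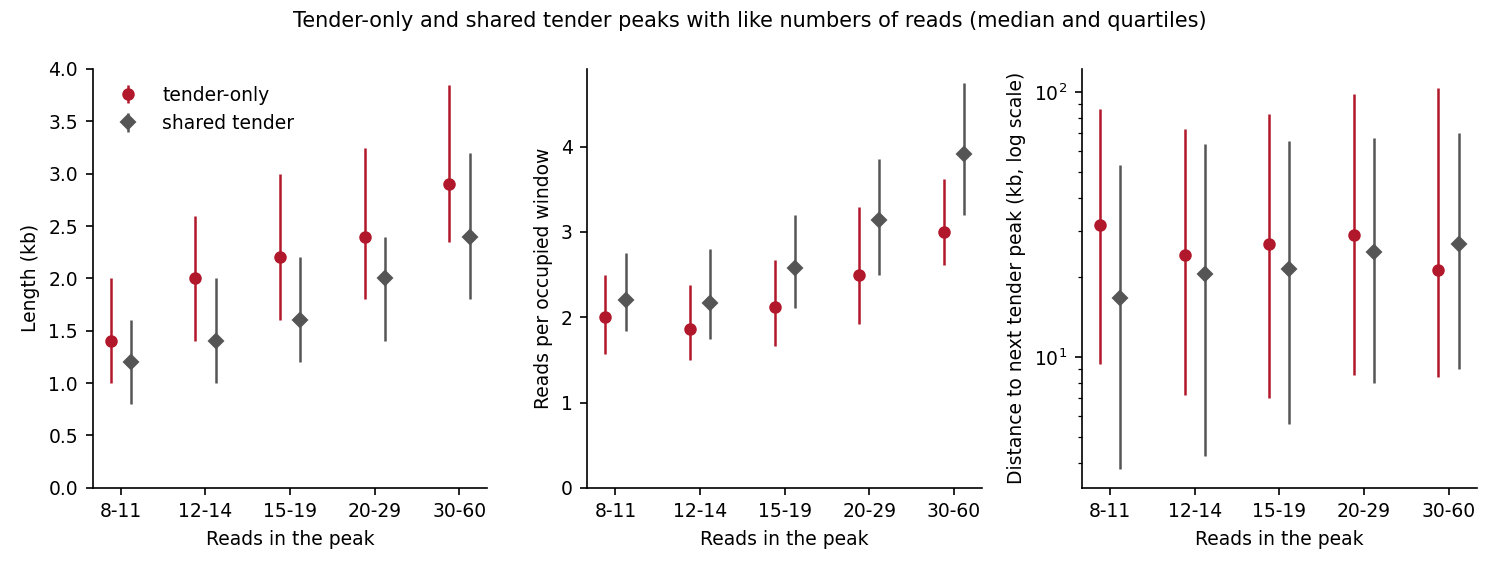
Median (points) and quartiles (bars) of peak length in kb (left), reads per occupied 200 bp window (middle) and distance to the next tender peak in kb on a log scale (right), by band of reads, for tender-only (circles) and shared tender (diamonds) peaks. In each band the tender-only peaks were longer and had fewer reads per occupied window, for example 2000 against 1400 bp at 12 to 14 reads.

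The gap from each tender-only peak to the nearest tough peak was measured edge to edge. Its median was 32000 bp, with quartiles of 10000 and 91000 bp. Few peaks lay close by, with 8 that abutted a tough peak, 34 within 400 bp and 128 within 1 kb (4.67%). Within 5 kb there were 426 (15.5%, interval 14.2 to 17.0), within 50 kb 1644, and within 500 kb 2657 (96.9%). The 1574 tough-only peaks lay nearer to the other group, at a median of 23600 bp (6600 and 68150) from the nearest tender peak and with 20.3% within 5 kb. The tender list also held more peaks to be near to.

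**Figure D3:**
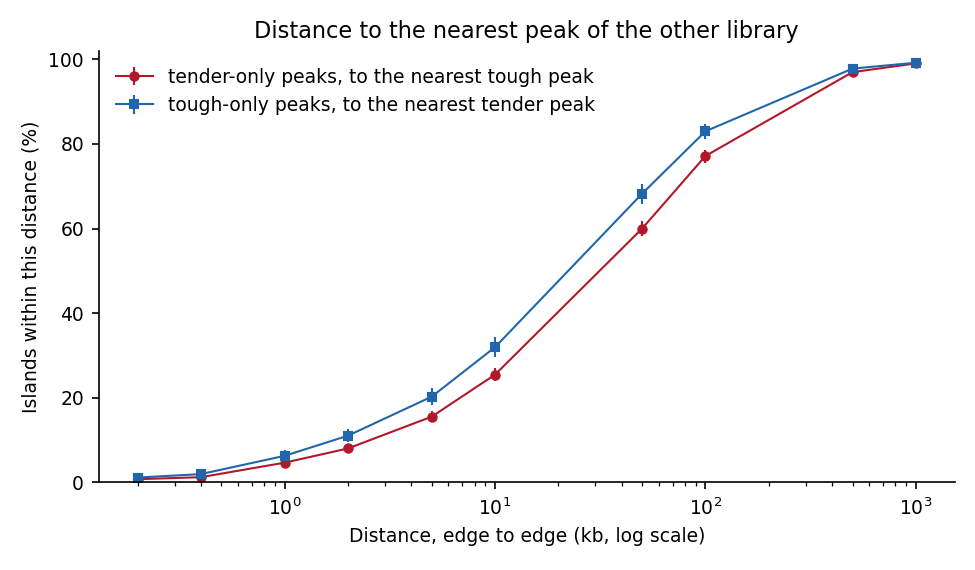
Share of tender-only peaks (circles) within a given distance of a tough peak, and of tough-only peaks (squares) within that distance of a tender peak (y axis, %), against the distance edge to edge in kb on a log scale, with 95% Wilson intervals. At 5 kb the shares were 15.5% and 20.3%, and at 500 kb they were 96.9% and 97.8%.

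At the edge of the rule, the listed positions decided membership by a single window. The 8 abutting peaks shared a border with a tough peak and no base. The highest scores among them were 48.4 at chr18:34727601-34733000 (22 reads over 15 windows), 42.8 at chr2:120191401-120193800 (17 reads) and 33.3 at chr19:40980601-40983600 (15 reads). The next were 28.9 at chr18:54280201-54282600 and 26.7 at chr16:47983801-47986000, both with 12 reads. Another 13 tender-only peaks were 200 bp from a tough peak. On the other side of the rule, 19 tender peaks were met by a tough peak over 200 bp only. The highest scores among these were 65.2 at chr20:31053601-31053800 (17 reads in 1 window), 54.0 at chr24:58658601-58660200 (19 reads) and 38.1 at chr17:55530201-55530400 (11 reads in 1 window). They were followed by 34.9 at chr20:38111401-38115200 and 30.3 at chr11:13433201-13434600.

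For the 426 tender-only peaks within 5 kb of a tough peak, the tough peak beside them met another tender peak in 352 cases (82.6%, interval 78.7 to 85.9). This was close to the 83.7% of the tender-only peaks further away, and to the 86.0% of all tough peaks that met any tender peak. In themselves the 426 were much like the rest, with a median of 12 reads in both, a score of 29.3 against 29.6 and a length of 2000 against 1800 bp. Their surroundings were more crowded, with a median of 15 against 8 other tender peaks within 500 kb. Another tender peak lay within 5 kb for 78.6% of the 426 and for 6.87% of the rest. On the lower-coordinate side of the tough peak lay 201 of the 426 (47.2%).

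At the far end, some tender-only peaks had no neighbour of either group. For 56 of them (2.04%) no peak of either list lay within 500 kb, and for 19 none lay within 1 Mb. Shared peaks were not far from this where tender peaks alone were counted. No other tender peak lay within 500 kb of 2.34% of the tender-only (interval 1.83 to 2.97) and 1.78% of the shared peaks (1.54 to 2.06). The most isolated tender-only peak was chr20:49533001-49533400, with 12 reads in 2 windows and 6217.6 kb to both the nearest tough and the nearest other tender peak. It was followed by chr1:26086801-26088600 (19 reads, 2881.8 kb from a tough peak), chr15:71432801-71434000 (12 reads, 2867 kb), chr9:57622201-57623000 (9 reads, 2426.8 kb) and chr24:9737801-9739800 (20 reads, 2335.8 kb). Of these only the peak on chromosome 9 scored under the lowest tough score with the tough mean, at 22.4.

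The distance to the next tender peak was slightly larger for tender-only than for shared peaks. The median was 28000 bp (quartiles 8200 and 82000) against 24000 bp (7000 and 65600), and it was the larger on 20 of 29 chromosomes and the smaller on 8. Within 1 kb of another tender peak lay 5.04% of the tender-only and 7.42% of the shared peaks. Part of the nearest pairs among the shared peaks came from splitting, in which 1 tough peak met several tender peaks. That was so for 527 shared peaks (5.34%), and for 12.3% of those with 8 to 11 reads. Without these the shared median was 26800 bp. In bands of 8 to 11, 12 to 14, 15 to 19 and 20 to 29 reads, the tender-only medians were then 31400, 24200, 26800 and 28800 bp, and the unsplit shared medians 25200, 26800, 25600 and 27200 bp. At 30 to 60 reads, with 24 tender-only peaks, they were 21400 and 28400 bp. The order thus turned at 12 to 14 and at 30 to 60 reads, and the difference in spacing had no single direction once split peaks were left out.

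Tender-only peaks stood next to each other a little more often than shared peaks stood next to them. The nearest other tender peak was itself tender-only for 688 of 2741 tender-only peaks (25.1%, interval 23.5 to 26.8) and for 1944 of 9866 shared peaks (19.7%, 18.9 to 20.5). Within bands of reads the shares were 24.2% against 22.3% at 8 to 11 reads, 25.7% against 21.3% at 12 to 14, 26.6% against 21.1% at 15 to 19 and 23.6% against 19.1% at 20 to 29. In each of these 4 bands the intervals of the compared shares overlapped. Split shared peaks were not left out here. Each has another shared peak under the same tough peak, which can lower the value for shared peaks.

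Over all chromosomes together the medians of local peak density were close, and they were further apart on some single chromosomes. A tender-only peak had a median of 9 other tender peaks within 500 kb (quartiles 4 and 16), and a shared peak 10 (5 and 19). On single chromosomes the tender-only median was the lower on 13, the higher on 6 and equal on 10. The lower values included 12 against 27 on chromosome 29, 16 against 22 on chromosome 18, 19 against 24.5 on chromosome 25 and 19 against 23 on chromosome 19. Higher ones included 11 against 9 on chromosome 11 and 5.5 against 4 on chromosome 6. Within 2 Mb the medians were 28 and 31, and within 100 kb both were 2. The share of tender peaks that were tender-only was 24.3% where 0 to 2 other peaks lay within 500 kb, between 22.0% and 22.8% from 3 to 20 peaks, and 17.9% (interval 16.5 to 19.4) at 21 or more. At 8 to 11 reads the densest places again had the lowest share, 57.3% against 65.3% to 68.8% elsewhere. At 12 to 14 reads they had 49.9% and the others 50% to 57.8%. At 15 to 19 reads it was 27.3% there and 25.9% to 31.4% elsewhere, so that the lower share of dense places was not seen in that band.

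Chromosomes differed in the share of tender peaks that were tender-only from 16.7% to 27.6%. The highest shares were on chromosome 27 (37 of 134, 27.6%, interval 20.8 to 35.7), chromosome 20 (54 of 201, 26.9%) and chromosome 14 (78 of 295, 26.4%). The lowest were on chromosome 3 (121 of 725, 16.7%, interval 14.2 to 19.6), chromosome 18 (131 of 759, 17.3%) and chromosome 7 (137 of 754, 18.2%). Of the 29 intervals 3 left out the value of all chromosomes, and 6 did in the named peak lists. The order changed with the lists and the threshold. In the named lists chromosome 14 was 16th with 23.1% and chromosome 19 second with 26.4%, and at 2 times the lowest tender score chromosome 27 had the lowest share (1.41%) and chromosome 29 the highest (6.83%). Chromosomes 19 and 25, the most crowded with 13.6 and 12.1 tender peaks per Mb, had shares of 24.1% and 20.7%. Counted per Mb up to the last peak, tender-only peaks ran from 0.538 on chromosome 12 to 3.29 on chromosome 19, with 1.09 over all.

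**Figure D4:**
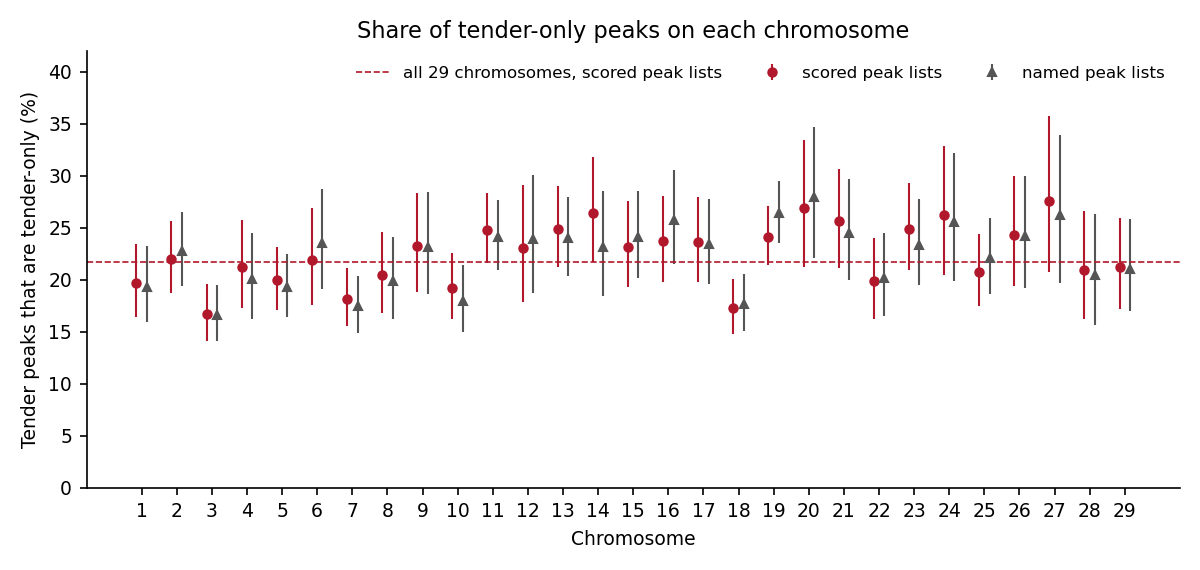
Share of tender peaks that were tender-only (y axis, %) on each of chromosomes 1 to 29 (x axis), in the scored peak lists (circles) and the named peak lists (triangles) of the same libraries, with 95% Wilson intervals. The dashed line marks all 29 chromosomes in the scored lists, and chromosomes 3, 7 and 18 had the lowest shares in both.

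The chromosomes with the highest shares of tender-only peaks had a larger part of their tender peaks weakly supported than those with the lowest. Tender peaks under 16 reads made up 38.1% of the tender peaks of chromosome 27, 33.3% of those of chromosome 20 and 36.3% of those of chromosome 14. On chromosomes 3, 18 and 7 they made up 24.7%, 27.9% and 28.4%. Most tender-only peaks had under 16 reads themselves, so the 2 shares are tied, and this is a description only. At 11 to 15 reads the tender-only share ran from 43.0% on chromosome 29 to 66.7% on chromosome 26, and 2 of 29 intervals left out the 53.9% of all.

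Along the chromosomes, tender-only peaks were more frequent near the end with the highest coordinates. In the last 5 Mb before the last peak of a chromosome, 368 of 1115 tender peaks were tender-only (33.0%, interval 30.3 to 35.8), against 2373 of 11492 elsewhere (20.6%, 19.9 to 21.4). The share was 33.2% within 2 Mb of the last peak, 32.8% at 2 to 5 Mb, 24.1% at 5 to 10 Mb, 21.9% at 10 to 20 Mb and 19.8% further in. The first 5 Mb of the chromosomes had 146 of 673 (21.7%). In all, 13.4% of the tender-only and 7.57% of the shared peaks lay in the last 5 Mb.

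This difference held on 28 of the 29 chromosomes, although single chromosomes had few peaks there. Chromosome 9 had 14 of 27 tender peaks tender-only in its last 5 Mb and 20.4% elsewhere, chromosome 11 had 34 of 83 and 22.4%, and chromosome 21 had 26 of 65 and 22.0%. The exception was chromosome 18, with 9 of 108 (8.33%, interval 4.45 to 15.1) in the last 5 Mb and 18.7% elsewhere. Its last 5 Mb held the most tender peaks of any chromosome.

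Weak support moved with position as well. Tender peaks under 16 reads, which include most tender-only peaks, were 42.7% of those in the last 5 Mb and 29.5% of the others. The part of this in the difference was examined within bands of reads. There the tender-only share was 70.8% in the last 5 Mb against 64.3% elsewhere at 8 to 11 reads, 56.0% against 51.8% at 12 to 14, 36.0% against 26.1% at 15 to 19, and 11.2% against 6.92% at 20 to 29. The intervals were apart only at 15 to 19 reads. At 11 to 15 reads, 13 of the 17 chromosomes with at least 10 peaks on both sides had the higher share in the last 5 Mb. Pooled over chromosomes, the shares in that band had overlapping intervals. They were 57.8% (52.9 to 62.5) in the last 5 Mb and 53.8% (51.9 to 55.7) between the first and last 5 Mb. Among tough peaks of that band, the tough-only share was higher on 6 and lower on 8 of 14 chromosomes in the last 5 Mb. Tough-only peaks were also more frequent there, 19.4% against 13.5% of tough peaks, on 22 of 29 chromosomes, and within bands the tough-only share was close to that elsewhere at 8 to 11 reads (11 of 28 there, 39.2% elsewhere) and at 12 to 14 (85 of 189 there, 45.2% elsewhere). It was 24.8% there against 21.7% elsewhere at 15 to 19 reads and 8.73% against 5.38% at 20 to 29. In the named lists the tough-only intervals at 20 to 29 reads were apart (6.89 to 14.2 and 3.78 to 5.37).

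**Figure D5:**
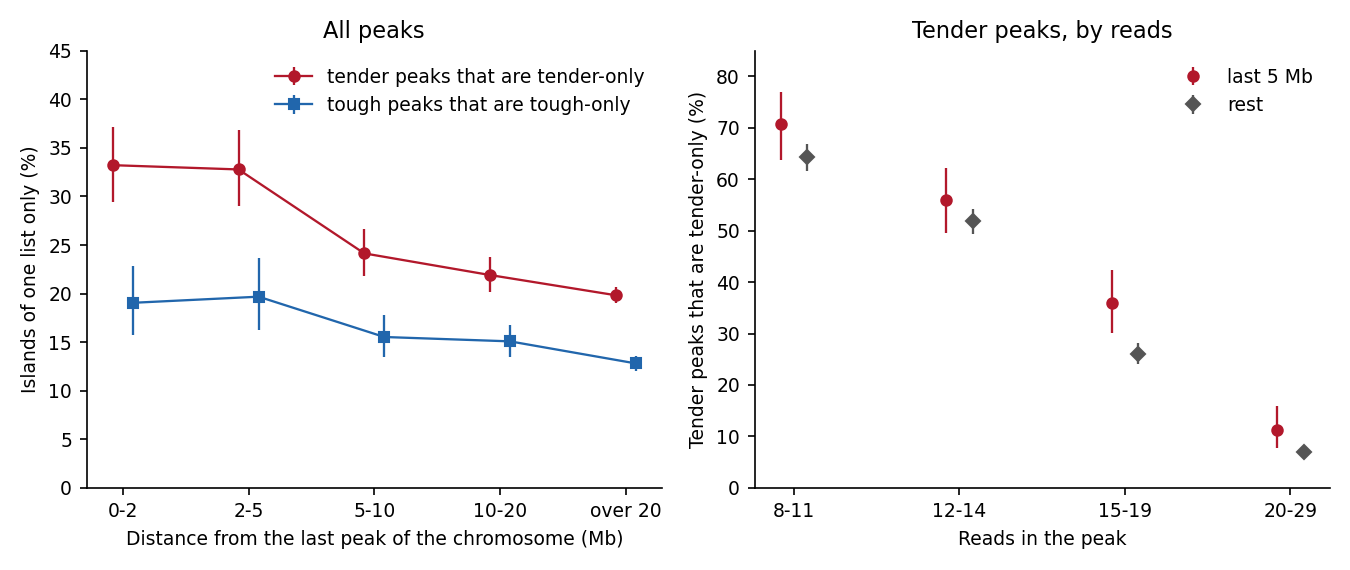
Left, share of tender peaks that were tender-only (circles) and of tough peaks that were tough-only (squares) by distance from the last peak of the chromosome in Mb. Right, tender-only share of tender peaks in the last 5 Mb (circles) and elsewhere (diamonds) by band of reads, bars being 95% Wilson intervals. The tender-only share was 33.2% within 2 Mb and 19.8% beyond 20 Mb.

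In the last 5 Mb the tender-only peaks themselves were like those elsewhere. Their median length was 1800 bp in both places, with 13 and 12 reads and 2.0 reads per occupied window in both. The nearest tough peak was 30300 bp away in the last 5 Mb and 32600 bp elsewhere, and 11 and 9 other tender peaks lay within 500 kb. The shared peaks of the last 5 Mb had fewer reads than those elsewhere, with medians of 22 and 25.

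Tender-only peaks were spread over much of the genome. Of the 2523 bins of 1 Mb up to the last peaks, 1235 held at least 1 tender-only peak (48.9%) and 1835 a shared tender peak (72.7%). In 596 bins there was a single tender-only peak, and in 135 there were 5 or more. Only 146 tender-only peaks (5.33%) lay in the 111 bins that held no shared tender peak. The highest number in a bin was 11, reached on chromosome 17 from 74 to 75 Mb, beside 18 shared peaks, on chromosome 21 from 66 to 67 Mb, beside 7, and on chromosome 5 from 113 to 114 Mb, beside 14. The bin on chromosome 21 was the only one of these with more tender-only than shared tender peaks. The bin on chromosome 17 lay at the end of that chromosome, whose last peak ended at 75.1 Mb.

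In the order of all peaks of both lists, 1038 tender-only peaks (37.9%) stood in 447 runs of at least 2 with no other peak between them. There were 344 runs of 2, 79 of 3 and 24 of 4 or more, with a median span of 64800 bp, and 115 runs spanned 20 kb or less. Of the tough-only peaks 418 (26.6%) stood in such runs, the longest of 4. Such runs become more frequent and longer as one-list peaks make up more of a list. Tender-only peaks were 21.7% of the tender peaks, and tough-only peaks were 14.0% of the tough peaks. Whether the runs went beyond what these shares give was not tested. The longest run of tender-only peaks held 9, on chromosome 9 from 103332601 to 105069800, over 1737.2 kb without a tough or shared peak and within 5 Mb of the last peak of that chromosome at 105.7 Mb. Its members had 9 to 22 reads. The strongest was chr9:103564801-103566200, with a score of 60.2 and 22 reads in 7 windows, and next came chr9:103332601-103333000, with a score of 40.1 and 12 reads in 2 windows. The gaps between neighbours of the run ranged from 22200 to 417200 bp.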

How the data were processed

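H3K4me3 was measured by ChIP-Seq in 1 pooled library of tender and 1 of tough LD. By the methods given, alignment was done with Maq against bosTau4, with at most 1 mismatch and without duplicates or reads of several equal positions. SICER was run with a window of 200 bp, a gap of 400 bp and an E-value of 100. The submitters' processing notes give SICER 1.1. The authors deposited for each library a scored peak list and a list of named peaks, both with the SICER score as their unit. No control library is named. The named lists hold 12452 tender and 11395 tough peaks, the totals that the paper reports. The scored lists hold 12930 and 11535, so the main data here are not the peak set of the paper. The build of the scored lists is not given in the sources used here, nor is it stated whether the alignment above applies to them.

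Groups came from the labels. The scored lists on chromosomes 1 to 29 were the main data. Distances were measured edge to edge, density was counted between centres within 500 kb, and the last peak end of either list stood in for the end of a chromosome. The reads of a peak were computed from scores up to 180, as the only set of window counts that gave the score within 2e-09, in 92.9% (tender) and 96.0% (tough) of all listed peaks. Library totals are not in the files used here, so depth is known only as the mean per window. Shares carry 95% Wilson intervals. Where the rule used length, reads and score, values are descriptions.

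The members, lists and named regions (the 5 highest by score, by score per window and by isolation, the 5 at either edge of the rule, the longest run, and the 3 chromosomes with the highest and lowest share with those the paper names) were chosen with earlier results of these data known. The comparisons of distal ends, split peaks, scores with the tough mean and named peak lists were added once values were known. The alternatives were 2 times the lowest score in either list, gaps of up to 400 bp or 50% coverage as shared, chromosome X, other windows and distances. The gene lists set for annotated peaks were not analysed here. The scripts were tested on simulated data and used numpy 2.4.6, scipy 1.17.1, pandas 2.3.3 and matplotlib 3.10.9 under Python 3.11.15.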

Additional observations from a re-analysis of the deposited data

How the results depend on the processing

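Of 93 values under the alternatives, 52 stayed within the interval of the reported value (counts within 1.5 times) and 41 did not. Some alternatives changed the quantity itself, such as other distance limits, density windows or lengths of the chromosome end. Their values can differ by definition, so the tally does not measure processing alone. No paired analysis was possible because each group had 1 pooled library, and for the same reason no replicate could be left out. In each of the 7 alternatives of lists and rule, tender-only peaks had the lower score per window, the next tender peak further off and the higher share in the last 5 Mb than elsewhere. None of the 7 left out split peaks. Their removal, which could touch shared peaks only, turned the order of spacing at 12 to 14 reads. At 2 times the lowest tender score, 305 tender-only peaks were left, with 13.1% within 5 kb of a tough peak, 48400 bp to the next tender peak, 5 tender peaks within 500 kb, chromosome shares from 1.41% (chromosome 27, the highest before) to 6.83% (chromosome 29), a length of 2200 bp (as in shared peaks), a score per window of 5.45, 24 peaks in runs, and 7.66% in the last 5 Mb against 3.63% elsewhere. A peak of 12 reads cannot reach that score, even with all its reads in 1 window, so no share is given at 12 reads. With 2 times the lowest tough score there were 5962, at 60000 bp from a tough peak, 9.28% within 5 kb, with chromosome shares from 41.5% to 57.5%, a score per window of 4.45, a share of 91.2% at 12 reads, 61.6% in the last 5 Mb against 45.9%, and 4434 in runs. Scored with the tough mean there were 1826, at 31100 bp from the next tender peak, with 8 tender peaks within 500 kb, 11.2% on the lowest chromosome, a score per window of 3.91, 54.5% at 12 reads, 25.9% in the last 5 Mb against 15.3%, and 552 in runs. With 50% coverage as the rule, lengths were 2000 bp in tender-only and shared peaks, the distance was 22800 bp, 27.1% lay within 5 kb, the lowest chromosome had 20.8%, 63.2% were tender-only at 12 reads and 37.5% in the last 5 Mb against 24.0%. The named peak lists gave 2647 tender-only peaks (21.7%), a score per window of 3.28 and 56.1% at 12 reads, and the last 5 Mb had the higher share on 24 of 29 chromosomes, with chromosome 20 highest and 3 lowest. Centre to centre, the next tender peak was 29900 bp away. Density was 2 within 100 kb, 28 within 2 Mb and 8 when tough peaks were counted. Within 2 kb and 10 kb of a tough peak lay 8.03% and 25.5%. The last 10 Mb had 28.4%. Chromosomes 1 to 29 and X gave 2838.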

Other observations

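Chromosome X, which the comparisons above leave out, held 97 tender-only peaks among 320 tender peaks in the scored lists. The share was 30.3% (Wilson interval 25.5 to 35.6), above the 27.6% of chromosome 27, the highest of chromosomes 1 to 29, whose interval it overlapped. The named peak lists end at 87.9 Mb on X against 148.8 Mb in the scored lists, so X was not compared between them.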
